A study of Homo sapiens with 8 samples.

Results

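The 60 genes described here are a fixed list of protein-coding genes of chromosome 21, the autosome that is present in an extra copy in Down syndrome. They were taken by symbol from the table of all reads, which held all 60 among 27424 genes, and 35 of the 60 were also in a separate table of converted reads, which held 6993 genes. For each gene the named transcript row with the highest mean was used. HMGN1, the chromosome 21 gene that was overexpressed, is not among the 60.

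The libraries came from NALM6, a human leukaemia line with the features of B-cell precursors, engineered to overexpress HMGN1 when doxycycline is added. The vehicle group was 3 libraries (A, B and C) of the line with wild-type HMGN1, given vehicle for 6 h. The induced wild-type group was 3 libraries of that line given doxycycline at 100 ng/ml for 6 h. The induced mutant group was 2 libraries (A and B) of a line with the S20,24E form of HMGN1, which is deficient in nucleosome binding, given the same doxycycline treatment. All groups had 4-thiouridine at 100 µM for the last 5 h, and 4 µg of RNA entered each preparation. A vehicle group for the mutant line was not analysed here, so line and doxycycline differ together between mutant and vehicle, and in both lines doxycycline and HMGN1 cannot be told apart. The labels call the replicates biological and say nothing of separate cultures, so the p-values measure the spread between these libraries, which may be technical in part.

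SLAM-seq marks the RNA made during a pulse. Cells build 4-thiouridine into new transcripts, chemical modification makes it read as C in place of T, and conversion is higher for RNA that turns over quickly than for long-lived RNA. Chromosome 21 genes are studied in Down syndrome because the extra copy raises the dosage of many of them, and a segment of the long arm that holds DYRK1A is often called the Down syndrome critical region. Children with Down syndrome have a raised risk of B-cell acute lymphoblastic leukaemia. The chromosome also carries a cluster of cytokine receptor genes (IFNAR1, IFNAR2, IL10RB and IFNGR2), the blood transcription factor RUNX1 and the antioxidant enzyme gene SOD1.

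Promoter windows from 250 bases before to 50 after a start site were found in RefSeq (GRCh38.p14) for 51 of the 60 genes. The 4 windows printed here were picked as examples and do not stand for the starts of the list. The first is a start shared by genes that run in opposite directions, the next pair carry the motif of a factor that is itself on the list, and the last belongs to the interferon-induced gene. SON, a splicing cofactor of nuclear speckles, has its window at chr21:33542788-33543087 on the plus strand, and a start of GART, a purine-synthesis enzyme, lies 146 bases away on the minus strand. Capitals mark CCAAT on either strand, of which the window held 3 copies.

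SON: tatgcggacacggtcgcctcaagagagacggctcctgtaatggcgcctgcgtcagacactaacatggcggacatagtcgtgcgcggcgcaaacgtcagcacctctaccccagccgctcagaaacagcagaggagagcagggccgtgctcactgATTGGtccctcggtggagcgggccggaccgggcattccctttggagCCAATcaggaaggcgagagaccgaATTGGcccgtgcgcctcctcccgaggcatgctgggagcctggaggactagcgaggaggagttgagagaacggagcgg

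GABPA encodes the DNA-binding subunit of an ETS-family factor. Capitals mark CCGGAAG, a form of the ETS motif, on either strand. The window of GABPA itself, at chr21:25734722-25735021 on the plus strand, held 1 copy, and so did that of IFNGR2, a subunit of the interferon gamma receptor, at chr21:33403163-33403462 on the plus strand.

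GABPA: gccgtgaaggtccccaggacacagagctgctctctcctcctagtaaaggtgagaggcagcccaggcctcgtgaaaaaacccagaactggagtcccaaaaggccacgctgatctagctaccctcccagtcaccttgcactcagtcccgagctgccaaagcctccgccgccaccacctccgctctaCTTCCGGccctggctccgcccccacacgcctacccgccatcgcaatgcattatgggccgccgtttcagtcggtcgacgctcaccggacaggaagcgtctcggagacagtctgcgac

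IFNGR2: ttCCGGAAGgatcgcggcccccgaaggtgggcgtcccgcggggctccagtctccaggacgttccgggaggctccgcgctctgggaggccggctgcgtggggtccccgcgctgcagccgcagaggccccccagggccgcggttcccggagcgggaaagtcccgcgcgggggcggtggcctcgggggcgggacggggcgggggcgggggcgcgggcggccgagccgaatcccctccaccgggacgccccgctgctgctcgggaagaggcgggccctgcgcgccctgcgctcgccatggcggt

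MX1 encodes an antiviral GTPase that interferon induces. One of its windows, at chr21:41420308-41420607 on the plus strand, held 1 copy of the interferon-stimulated response element core, which is a pair of TTTC separated by any 2 bases. It lies on the opposite strand and is in capitals.

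MX1: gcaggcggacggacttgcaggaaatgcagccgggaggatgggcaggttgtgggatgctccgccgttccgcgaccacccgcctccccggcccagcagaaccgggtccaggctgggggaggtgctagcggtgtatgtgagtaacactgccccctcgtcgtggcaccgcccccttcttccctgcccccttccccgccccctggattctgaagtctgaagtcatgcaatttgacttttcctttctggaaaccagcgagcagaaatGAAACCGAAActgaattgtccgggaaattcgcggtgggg

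The 51 genes had 89 windows, and 35116 windows of all genes were searched on both strands with the same motifs, none of which contains another. CCGGAAG was in 15 of the 89 windows (16.9%), belonging to 14 genes, and in 10.3% of all windows. CCAAT was in 21 of the 89 windows (23.6%), belonging to 15 genes, and in 34.6% of all windows. The interferon element core was in 3 of the 89 windows (3.37%), of C2CD2 and MX1, and in 3.57% of all windows. These are descriptions of letters, with no test. Other pairs with starts close together on opposite strands were TTC3 and PIGP, 183 bases apart, and ITSN1 and CRYZL1, 760 bases apart.

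The libraries held 7.99 to 17.7 M reads, of which 9748 to 25355 belonged to the 60 genes. HMGN1 had 145 to 191 CPM (reads per 1 M reads of the library) with vehicle, 217 to 317 in the induced wild type and 200 to 223 in the induced mutant, higher in all induced libraries. All 15 listed markers of B-cell precursors were at 1 CPM or more in every library, with a sum of 1952 to 2064 CPM with vehicle, 1877 to 2060 in the induced wild type and 1771 to 1924 in the induced mutant. Of the 7 myeloid markers only CSF1R and CD33 reached 1 CPM in every library, ELANE was at 0, and the sums were 422 to 517, 365 to 440.2 and 344 to 431 CPM in the same order. None of the 7 T-cell, 6 erythroid or megakaryocyte and 6 adherent-cell markers in the table reached 1 CPM in every library, and CD2, CD3D, CD7, HBB and PF4 were at 0 in all. The part of these markers in the results was not tested. CPM and the values made from them are relative to the reads of a library and hold no measure of RNA per cell. In bulk libraries fewer cells of a kind and less RNA per cell cannot be told apart.

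CPM were not divided by transcript length, so a value tells how many reads stand behind a gene and gives no ranking of molecules. SOD1 had the most reads, with 363, 257 and 253 CPM with vehicle, 262, 279 and 202 in the induced wild type and 198 and 298 in the induced mutant. CCT8, a subunit of the chaperonin that folds actin and tubulin, had a vehicle mean of 119 ± 9.8 CPM (SD, n = 3 here and for the next 4 genes). U2AF1, which recognises the 3′ splice site, had 98.0 ± 12.4 CPM. These genes serve every cell. SUMO3, a ubiquitin-like modifier, had 60.3 ± 2.3 CPM. APP, the amyloid precursor protein, had 55.2 ± 15.4 CPM. UBE2G2, a ubiquitin-conjugating enzyme of the endoplasmic reticulum, had 53.6 ± 7.2 CPM. At the other end HUNK, a protein kinase, had a vehicle mean of 0.0938 CPM on 0 to 6 reads per library, and BACE2, a protease, 0.123 CPM on 0 to 3 reads. CBR3, a carbonyl reductase, had 0.944 CPM and C2CD2 0.970 CPM. Differences of HUNK and BACE2 were not detectable at this depth. No gene of the list was at 0 in all libraries.

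**Figure D1:**
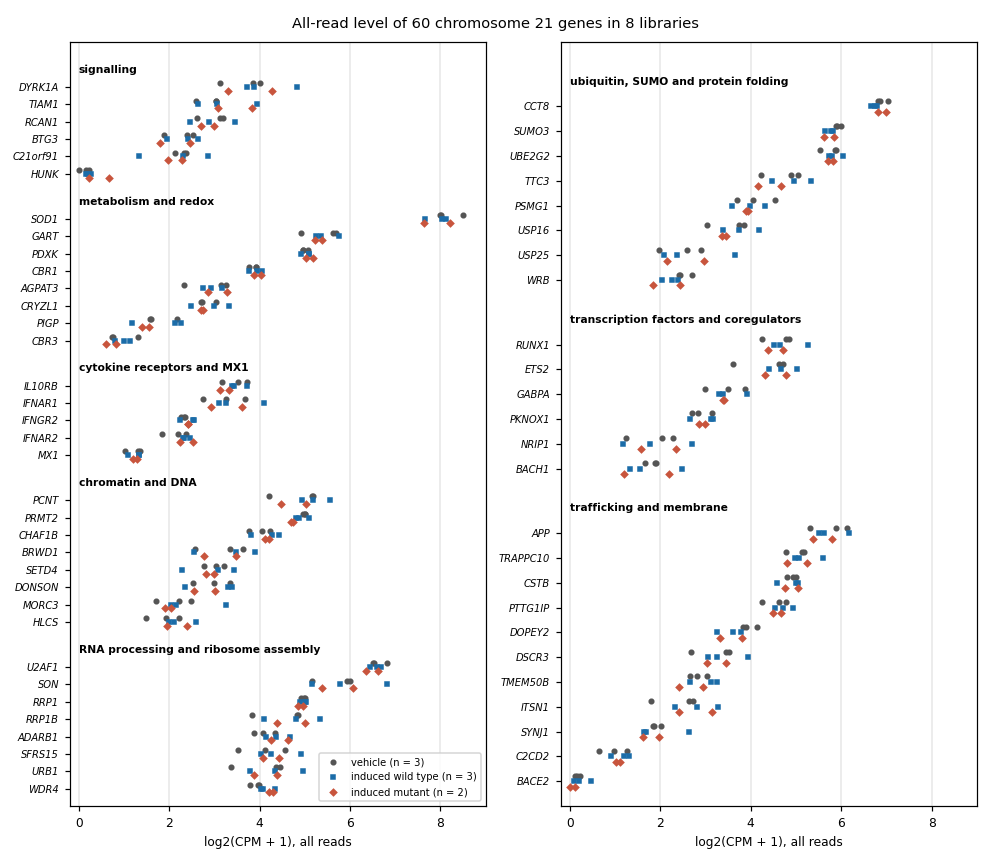
All-read level of the 60 genes as log2(CPM + 1), 1 row per gene grouped by role and 1 point per library, coloured by group. The groups overlap for most genes, and SOD1 stands at the top with 198 to 363 CPM.

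The cytokine receptor subunits had few reads. Vehicle means were 10.2 CPM for IL10RB, 8.74 for IFNAR1, 3.99 for IFNGR2 and 3.44 for IFNAR2. MX1, a target of these receptors' signals, had 1.57, 1.04 and 1.46 CPM with vehicle, 1.11, 1.5 and 1.52 in the induced wild type and 1.45 and 1.29 in the induced mutant, on 12 to 26 reads per library. The groups of MX1 overlapped.

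Among the 6 transcription factors and coregulators the vehicle means ran from 2.54 CPM for BACH1, a repressor of oxidative-stress genes, to 24.2 for RUNX1. The 8 genes of chromatin and DNA ran from 2.75 CPM for HLCS, which attaches biotin to proteins, to 30.8 for PRMT2, an arginine methyltransferase. This group includes CHAF1B, of the chaperone that deposits histones at replication, and PCNT, a centrosome scaffold. All 8 genes of RNA processing and ribosome assembly had at least 14.0 CPM with vehicle, the level of WDR4, a partner of a tRNA methyltransferase. Their median of 19.8 CPM lay beside 21.4 for ubiquitin, SUMO and protein folding, 10.2 for metabolism and redox, 8.62 for trafficking and membrane and 5.19 for signalling. The signalling genes ran from HUNK to DYRK1A, a dosage-sensitive kinase, at 12.1 CPM.

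The 25 genes absent from the converted table were MORC3, PIGP, HUNK, NRIP1, DONSON, SYNJ1, WRB, MX1, HLCS, SFRS15, SETD4, ITSN1, CBR3, BACE2, IFNGR2, BTG3, TMEM50B, PKNOX1, C2CD2, AGPAT3, IFNAR2, CRYZL1, RCAN1, BACH1 and C21orf91. They include all but IFNAR1 and IL10RB of the receptor group.

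The conversion rate, given here in percent, was described for the 44 genes of the list with a mean of at least 5 CPM, beside all 8724 genes at that level. With vehicle the median of the 44 was 6.08%, against 5.91% for the 8724, whose lower and upper quartiles were 3.76% and 7.53%. Of the 44 genes 10 were above that upper quartile and 7 below the lower one, so the list spanned the range of all genes. SFRS15 (now SCAF4), which acts in transcript termination, had the highest rate with 9.96, 11 and 10.7% with vehicle. PKNOX1, a homeodomain factor, had 10.7, 9.29 and 8.39%. RRP1, a nucleolar protein, had 7.90, 9.39 and 10.0%. The 3 overlapped in part, as neighbours in this order mostly did. ETS2, an ETS-family factor, had 6.93, 8.90 and 9.44%. At the low end SOD1 had 1.11, 1.40 and 1.87% with vehicle. DOPEY2 (now DOP1B), which acts in endosomal traffic, had 1.31, 2.21 and 2.02%. All 3 vehicle libraries of SOD1 and DOPEY2 were below every vehicle library of the genes at the top, though both ends were picked by these same values. SUMO3 had 2.03, 3.11 and 3.20% and CCT8 2.25, 2.50 and 3.65%.

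By role, the median vehicle rate was 8.17% over 4 transcription factors and 7.56% over 8 genes of RNA processing and ribosome assembly. It was 7.27% over 3 signalling genes, 6.16% over 6 genes of chromatin and DNA, 5.72% over 6 genes of metabolism and redox, 4.86% over 8 of trafficking and membrane and 3.86% over 7 of ubiquitin, SUMO and protein folding. Within a role the genes still differed: RUNX1 had 7.93 ± 0.94% and GABPA 3.83 ± 0.86% (SD, n = 3 for each). U2AF1 had the lowest rate of its group at 3.65 ± 1.0% (SD, n = 3).

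**Figure D2:**
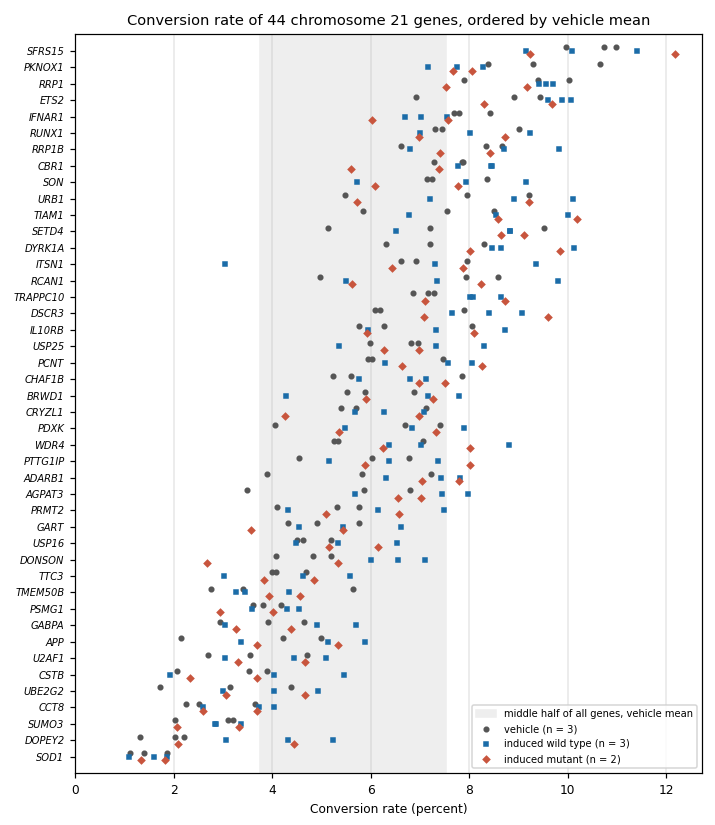
Conversion rate in percent of the 44 genes with a mean of at least 5 CPM, ordered by vehicle mean, 1 point per library coloured by group. SFRS15 has the highest vehicle mean, 10.6%, and SOD1 the lowest, 1.46%.

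IFNGR2, below 5 CPM, had a rate of 0.295, 0.638 and 0.928% with vehicle, 1.57, 0.674 and 0.549% in the induced wild type and 0.690 and 1.41% in the induced mutant. The groups overlapped, and its receptor neighbours were higher with vehicle, at 7.97 ± 0.39% for IFNAR1 and 6.69 ± 1.2% for IL10RB (SD, n = 3 for each).

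The 3 groups give 3 comparisons, which share libraries. Each was made in all reads (CPM), in converted reads (FPKM) and in new RNA. New RNA stands for the product of CPM and conversion rate, as log2 relative to the median of its library. Differences were fitted with limma across all genes on log2(CPM + 1), log2(FPKM + 1) or log2(new RNA + 0.1), which understates the change of low genes. After filters at a mean of 1, 1 and 0.2, limma tested 57 of the 60 genes in all reads (not HUNK, CBR3 and BACE2) and 32 of the 35 in converted reads (not USP25, CBR1 and SUMO3). In new RNA it tested 53 (not HUNK, IFNGR2, CBR3, PIGP, BACE2, MX1 and C2CD2). No gene of the list passed an adjusted p of 0.05 in any comparison and measure, so all differences named below are values that did not pass. Many rested on 1 library: of 54 differences named by rule, 36 turned sign or shrank by over 1.5 times when 1 library was left out. Wherever that was so, the value without that library stands in the parentheses after the SE.

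The induced wild type was compared with vehicle to ask how these genes differ when HMGN1 is overexpressed. In limma 0 of 57 genes passed in all reads (0% of all genes did), 0 of 32 in converted reads (0%) and 0 of 53 in new RNA (0.0207%). At an unadjusted p below 0.05, limma counted 0 in all reads (0.947% of all genes), 3 of 32 in converted reads (9.38%, against 7.93%) and 2 of 53 in new RNA (3.77%, against 3.10%). Groups were apart without overlap for 5 of 57 genes in all reads (8.77%, against 4.04% of all genes). In converted reads they were apart for 4 of 32 (12.5%, against 12.0%) and in new RNA for 4 of 53 (7.55%, against 8.05%). The shares in converted reads and new RNA lay near those of all genes. The median log2 difference was 0.09 in all reads, 0.25 in converted reads and -0.05 in new RNA, beside 0.09, 0.23 and -0.04 over all genes tested. After setting the median of every library to 0, the medians became -0.05 in all reads and -0.09 in converted reads, and those of all genes -0.04 and -0.11.

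IFNAR1, a subunit of the type I interferon receptor, had the smallest p in converted reads. It had 0, 1.59 and 1.57 FPKM with vehicle, 3.78, 3.41 and 5.33 in the induced wild type and 3.27 and 1.63 in the induced mutant. All 3 induced wild-type libraries were above the vehicle libraries, with a limma log2 difference of 1.44 (SE 0.44, adjusted p = 0.536). Low converted values lay near whole multiples of a step of 0.175 to 0.523 FPKM per library, which is read here as about 1 read. In these steps IFNAR1 had 0, 5 and 9 with vehicle and 17, 7 and 26 in the induced wild type. Its all-read values overlapped, at 5.74, 8.60 and 11.9 CPM with vehicle and 8.62, 7.64 and 16.0 in the induced wild type. Its conversion rate was 8.41, 7.69 and 7.8% with vehicle and 7.02, 6.70 and 7.56% in the induced wild type, all 3 below the vehicle libraries. In new RNA the 3 receptor genes tested, IFNAR1, IFNAR2 and IL10RB, had differences from -0.15 to -0.09, all below 0. That is opposite in direction to the converted reads of IFNAR1, but only new RNA was set relative to the library median. Before that centring the means of CPM times rate were higher in the induced wild type for all 3 genes, with overlap. They were 0.776 against 0.690 with vehicle for IFNAR1, 0.218 against 0.188 for IFNAR2 and 0.786 against 0.693 for IL10RB. Without vehicle A and induced wild type C the converted difference of IFNAR1 was 0.83.

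DOPEY2, in the critical region, was the gene of the list whose all-read and converted values were both apart from vehicle in both induced groups, in opposite directions. It had 16.5, 13.8 and 13.2 CPM with vehicle, 11.2, 8.52 and 12.8 in the induced wild type and 8.97 and 12.9 in the induced mutant. All induced libraries were below the vehicle libraries, and the limma log2 difference of the wild type was -0.40 (SE 0.22, adjusted p = 0.992, -0.26 without wild type B). In converted reads it had 0, 1.27 and 0.350 FPKM with vehicle, 2.0, 2.93 and 2.46 in the induced wild type and 2.97 and 3.58 in the induced mutant. All induced libraries were above the vehicle libraries, on steps of 0, 4 and 2 with vehicle, 9, 6 and 12 in the wild type and 10 and 11 in the mutant. The limma log2 difference of the wild type was 1.24 (SE 0.41, adjusted p = 0.536). Its conversion rate was 3.05, 4.32 and 5.23% in the induced wild type, above the vehicle values given before, and 4.45 and 2.10% in the induced mutant, where mutant B lay within the vehicle range. A row of the table without a symbol that RefSeq assigns to DOPEY2 had a mean of 12.4 CPM beside 12.2 for the row used.

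DYRK1A lies in the same region. It had 0, 0.640 and 0.530 FPKM of converted reads with vehicle, 1.33, 2.44 and 1.85 in the induced wild type and 2.96 and 1.30 in the induced mutant. All induced libraries were above the vehicle libraries, which held 0, 2 and 3 steps. The wild type differed from vehicle by 1.06 (SE 0.41, adjusted p = 0.583) in limma. All reads overlapped, with 7.76, 13.5 and 15.0 CPM with vehicle and 13.8, 12.3 and 27.5 in the induced wild type. The mutant had 18.3 and 8.88 CPM. The conversion rate did not overlap between vehicle, at 6.31, 7.21 and 8.29%, and the induced wild type, at 8.64, 8.45 and 10.1%. In the induced mutant the rate of mutant B lay within the vehicle range. In new RNA the log2 difference of the wild type from vehicle was 0.52 (SE 0.25, 0.31 without wild type C).

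ADARB1, an RNA-editing deaminase, and WRB (now GET1), a receptor for tail-anchored proteins, had the smallest p in new RNA. On the log2 scale relative to the library median ADARB1 was at -0.01, 0.12 and 0.37 with vehicle, 0.50, 0.60 and 0.51 in the induced wild type and 0.84 and 0.82 in the induced mutant. The groups lay in that order without overlap, and the wild type differed from vehicle by 0.38 (SE 0.17, adjusted p = 0.981) in limma. WRB was at -0.72, -1.29 and -1.06 with vehicle, -1.58, -1.82 and -1.76 in the induced wild type and -1.09 and -1.83 in the induced mutant. All wild-type libraries were below the vehicle libraries, the mutant overlapped with both, and the wild type differed by -0.69 (SE 0.25, adjusted p = 0.981). WRB rested on 25 to 97 reads per library. GET1-SH3BGR, an entry of the same locus, differed by -0.65 (SE 0.24, adjusted p = 0.981) in limma, and reads of both entries cannot be told apart.

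Among the remaining genes with the smallest p, WDR4 had 12.7, 14.5 and 14.9 CPM with vehicle and 15.8, 15.3 and 19.3 in the induced wild type, all higher, a log2 difference of 0.24 (SE 0.17, 0.14 without wild type C). SUMO3 had 62.9, 59.5 and 58.5 CPM with vehicle and 54.0, 48.7 and 55.4 in the induced wild type, all lower, a difference of -0.19 (SE 0.13). Its converted reads, below the filter and not tested, were 1.05, 1.29 and 1.24 FPKM with vehicle. They were lower in all induced libraries, at 0.44, 0.49 and 0.41 in the wild type and 0.91 and 0.64 in the mutant. These rested on few steps, 2, 4 and 7 with vehicle, 2, 1 and 2 in the wild type and 3 and 2 in the mutant. Vehicle A and mutant A were less than 1 step apart. CCT8 differed by -0.17 (SE 0.13, -0.11 without vehicle A), also without overlap. These all-read separations were narrow beside the spread within groups. ADARB1 and PCNT overlapped in all reads, with differences of 0.29 (SE 0.21, 0.18 without vehicle A and 0.15 without wild type C) and 0.38 (SE 0.29, 0.06 without vehicle A and 0.21 without wild type C). PCNT was at -0.11 with both of these libraries left out. In converted reads CSTB, an inhibitor of cathepsins, differed by -0.68 (SE 0.42, -0.29 without wild type C), the bromodomain gene BRWD1 by -0.70 (SE 0.54, 0.14 without wild type B) and PRMT2 by -0.27 (SE 0.33, 0.11 without wild type B). All 3 overlapped. In new RNA ETS2 differed by 0.35 (SE 0.21, 0.12 without vehicle A), SOD1 by -0.42 (SE 0.25, -0.19 without vehicle A and -0.24 without wild type C) and SUMO3 by -0.30 (SE 0.19, -0.20 without wild type C).

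**Figure D3:**
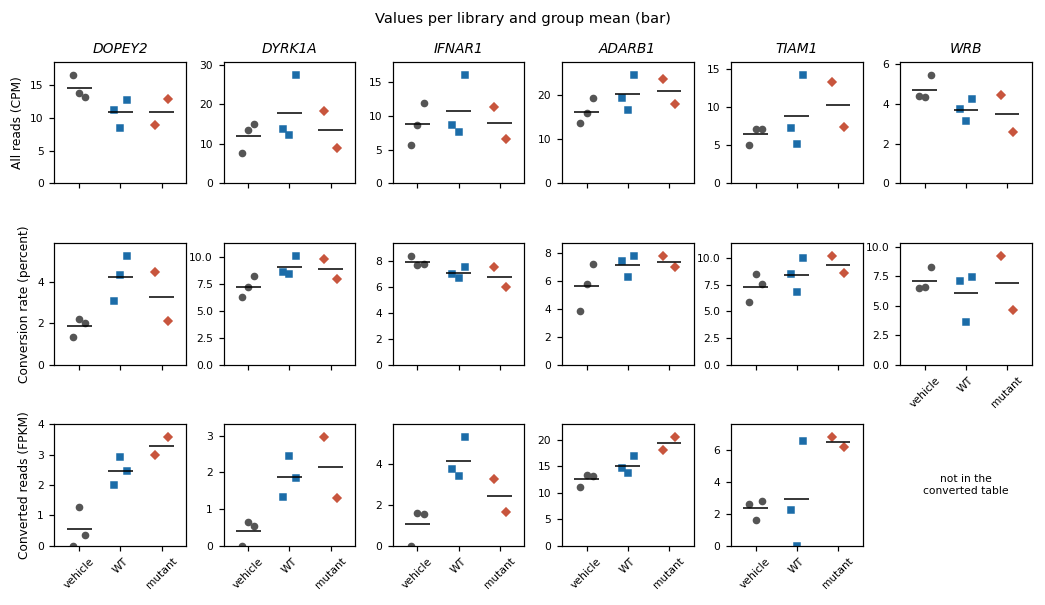
Values per library (points) and group means (bars) of 6 genes: all reads in CPM, conversion rate in percent and converted reads in FPKM, with vertical axes from 0. For DOPEY2 the induced libraries, 8.52 to 12.9 CPM, lie below vehicle in all reads and above it in converted reads.

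The induced mutant was compared with vehicle next. In limma 0 of 57 genes passed in all reads (0.0321% of all genes did), 0 of 32 in converted reads (0.401%) and 0 of 53 in new RNA (0.0414%). At an unadjusted p below 0.05, limma counted 0 in all reads (3.75% of all genes), 4 of 32 in converted reads (12.5%, against 11.8%) and 3 of 53 in new RNA (5.66%, against 7.40%). Without overlap were 7 of 57 genes in all reads (12.3%, against 16.0%) and 12 of 53 in new RNA (22.6%, against 24.0%). In converted reads 15 of 32 were without overlap (46.9%, against 28.2%), 11 higher and 4 lower in the mutant. The higher ones were ADARB1, CHAF1B, DOPEY2, DYRK1A, IFNAR1, TIAM1, TRAPPC10, U2AF1, URB1, USP16 and WDR4, and the lower ones CSTB, IL10RB, PRMT2 and SON. Some of these were near ties, with gaps below 1 step. IFNAR1 had 1.59 FPKM in vehicle B and 1.63 in mutant B, 5 steps in each. CSTB had 2.09 FPKM in vehicle A and 2.08 in mutant A, and SON 6.26 and 6.24. The share of all genes was counted by the same rule. The median log2 difference in converted reads was 0.24, beside 0.17 over all genes, and with each library's median set to 0 -0.03 beside -0.10. In all reads it was -0.01 beside -0.04 and in new RNA -0.05 beside -0.05.

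In converted reads DOPEY2 had the smallest p, with a limma log2 difference of 1.55 (SE 0.46, adjusted p = 0.164), and DYRK1A differed by 1.15 (SE 0.46, adjusted p = 0.329, 0.76 without mutant A). In all reads DOPEY2 differed by -0.39 (SE 0.25, -0.15 without mutant A). ADARB1 had 11, 13.3 and 13.1 FPKM with vehicle, 14.7, 13.7 and 17.0 in the induced wild type and 18.1 and 20.5 in the induced mutant. The groups followed each other without overlap, on 21 to 83 steps per library. The mutant differed from vehicle by 0.59 (SE 0.27, adjusted p = 0.410) in converted reads. In new RNA ADARB1 differed by 0.67 (SE 0.19, adjusted p = 0.287) in limma, the smallest p of the list there, and in all reads by 0.34 (SE 0.24, 0.16 without mutant A).

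TIAM1, an activator of the GTPase RAC1, and WDR4 were above all vehicle libraries in both mutant libraries in the 3 measures. TIAM1 had 5.06, 7.21 and 7.16 CPM with vehicle, 7.30, 5.26 and 14.3 in the induced wild type and 13.3 and 7.41 in the induced mutant, a difference of 0.57 (SE 0.39, 0.18 without mutant A) from vehicle. In converted reads it had 2.61, 1.59 and 2.80 FPKM with vehicle, 2.22, 0 and 6.55 in the induced wild type and 6.82 and 6.19 in the induced mutant. The wild-type libraries lay on both sides of the vehicle range, and wild type C came between the mutant libraries. Its difference from vehicle was 1.19 (SE 0.61, adjusted p = 0.470) in converted reads and 0.81 (SE 0.28, adjusted p = 0.443) in new RNA, by limma. WDR4 had 18.8 and 17.4 CPM in the mutant, a difference of 0.35 (SE 0.20). Its converted reads were 9.43, 9.21 and 10.7 FPKM with vehicle, 9.34, 12.2 and 14.9 in the induced wild type and 16.3 and 14.0 in the mutant. In new RNA WDR4 differed by 0.53 (SE 0.20, adjusted p = 0.515) in limma. URB1, a ribosome-assembly factor, had 1.05, 2.54 and 2.99 FPKM with vehicle and 6.24 and 3.90 in the mutant, a difference of 0.96 (SE 0.45, adjusted p = 0.419).

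The lower values in converted reads included SON, with 6.26, 10.2 and 9.82 FPKM with vehicle and 6.24 and 4.57 in the mutant. The limma difference was -0.59 (SE 0.34, adjusted p = 0.547), and SON overlapped in all reads, at 34.9, 59.7 and 63.2 CPM with vehicle and 66.3 and 40.5 in the mutant. IL10RB, a shared subunit of IL-10-family receptors, had 2.61, 1.90 and 1.93 FPKM with vehicle and 1.19 and 0.660 in the mutant, the latter 4 and 2 steps. Its difference was -0.72 (SE 0.44, adjusted p = 0.588) in limma. CCT8 differed by -0.63 (SE 0.53, -0.38 without vehicle B and 0.34 without mutant B). In all reads PRMT2 had 30.9, 30.2 and 31.2 CPM with vehicle and 24.8 and 25.8 in the mutant, a difference of -0.27 (SE 0.16), and SUMO3 differed by -0.21 (SE 0.15, -0.09 without mutant A). In new RNA GART differed by -0.32 (SE 0.19, -0.20 without mutant B), the replication-fork gene DONSON by -0.39 (SE 0.25, -0.10 without mutant B) and WRB by -0.44 (SE 0.28, -0.28 without vehicle A and -0.07 without mutant B).

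**Figure D4:**
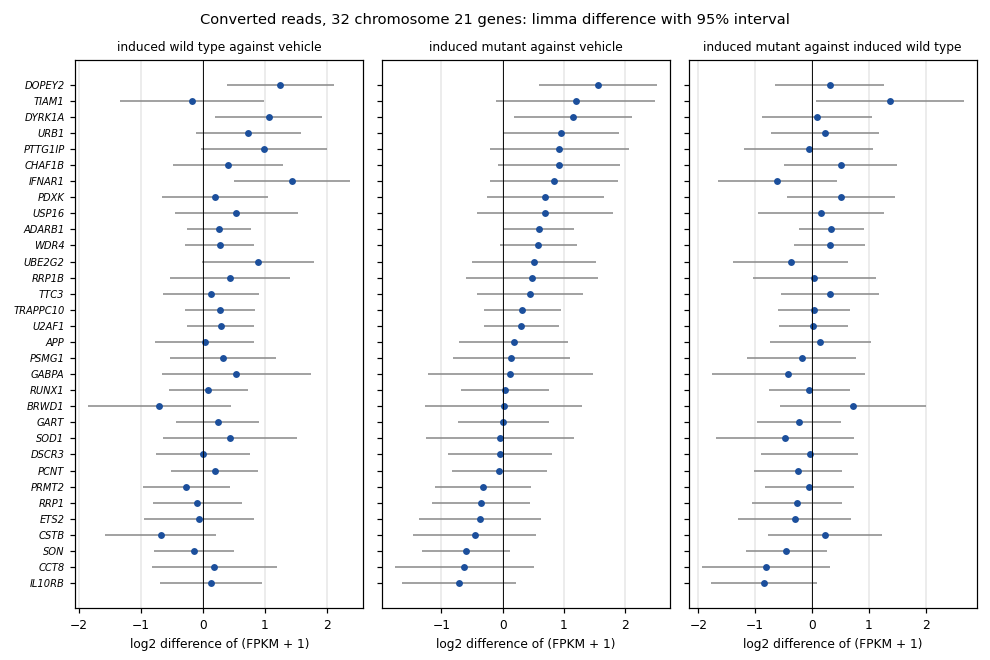
Limma log2 differences of (FPKM + 1) in converted reads for the 32 genes tested in the 3 comparisons, with 95% intervals. DOPEY2 differs by 1.55 between mutant and vehicle, and the intervals of most genes include 0.

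The induced mutant was compared with the induced wild type, both under doxycycline. In limma 0 of 57 genes passed in all reads (0.0321% of all genes did), 0 of 32 in converted reads (0%) and 0 of 53 in new RNA (0%). At an unadjusted p below 0.05, limma counted 0 in all reads (2.75% of all genes), 1 of 32 in converted reads (3.12%, against 2.95%) and 2 of 53 in new RNA (3.77%, against 2.97%). Without overlap were 4 of 57 in all reads (7.02%, against 15.0%), 7 of 32 in converted reads (21.9%, against 17.0%) and 8 of 53 in new RNA (15.1%, against 16.3%). The median log2 difference was -0.09 in all reads, -0.01 in converted reads and -0.01 in new RNA, beside -0.12, -0.04 and 0.00 over all genes. After that centring the all-read medians of list and all genes were 0.04 and 0.02.

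TIAM1 differed by 1.37 (SE 0.61, adjusted p = 1.00, 0.60 without wild type B) in converted reads in limma, with overlap. In all reads TIAM1 differed by 0.25 (SE 0.39, -0.04 without wild type B and -0.14 without mutant A). IFNAR2, the other subunit of the type I interferon receptor, was at -2.04, -1.73 and -1.62 in new RNA in the induced wild type and at -1.48 and -0.90 in the mutant, relative to the library median. It was higher in both mutant libraries, with a limma difference of 0.61 (SE 0.27, adjusted p = 0.999, 0.32 without mutant B), on 23 to 74 reads per library. DONSON was at -0.69, -1.12 and -0.88 in the induced wild type and -1.18 and -1.76 in the mutant, lower in both, with a difference of -0.58 (SE 0.25, adjusted p = 0.999, -0.28 without mutant B). In the same measure TIAM1 differed by 0.57 (SE 0.28, 0.32 without mutant A), ADARB1 by 0.29 (SE 0.19), GART by -0.25 (SE 0.19, -0.13 without mutant B) and PCNT by -0.25 (SE 0.20, -0.07 without mutant B).

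In converted reads IL10RB had 1.78, 1.95 and 3.89 FPKM in the induced wild type, all above the mutant, and differed by -0.84 (SE 0.44). SON differed by -0.45 (SE 0.34, -0.26 without mutant B), also without overlap, and ADARB1 by 0.34 (SE 0.27). BRWD1 and CCT8 differed by 0.72 (SE 0.61, -0.13 without wild type B) and -0.81 (SE 0.53, 0.15 without mutant B), and each changed sign without 1 library. In all reads CCT8 was higher in the mutant by 0.17 (SE 0.14, 0.07 without mutant B) and MORC3, a chromatin ATPase, differed by -0.52 (SE 0.39, -0.13 without wild type C), both without overlap. TTC3, a ubiquitin ligase, and PCNT overlapped, at -0.51 (SE 0.31, -0.30 without wild type C and -0.25 without mutant B) and -0.48 (SE 0.32, -0.31 without wild type C and -0.20 without mutant B). WDR4 differed by 0.11 (SE 0.20, 0.07 without wild type A, 0.05 without wild type B and 0.06 without mutant A).

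**Figure D5:**
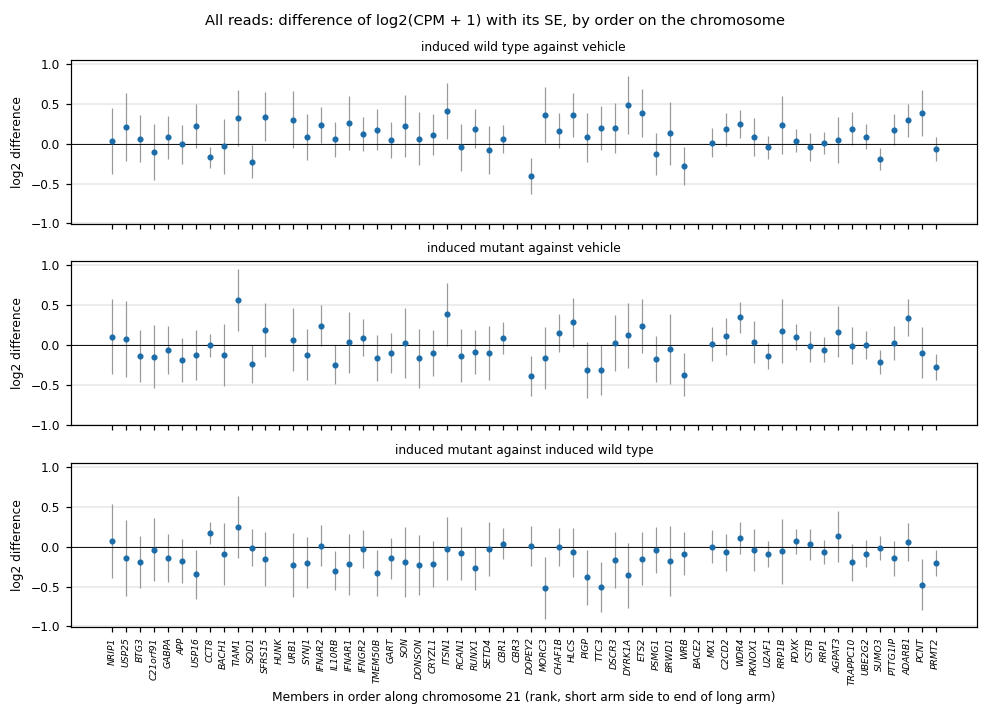
Limma differences of log2(CPM + 1) in all reads for the 57 genes tested, in their order along chromosome 21 (rank only), in the 3 comparisons. Values between -0.52 and 0.57 are spread along the order.

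By role, medians between induced wild type and vehicle in all reads ran from -0.02 to 0.24, and no role had a gene that passed. The 15 genes assigned to the critical region, from CBR1 to BACE2, were counted apart: 13 were tested in all reads, 8 in converted reads and 12 in new RNA, and none passed. Between induced wild type and vehicle their medians were 0.16 in all reads and 0.22 in converted reads. The genes of the list outside the region had 0.08 over 44 tested and 0.25 over 24. The difference between region and rest was not tested.

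The conversion rate averaged over the 60 genes, weighted by CPM, was 3.24%, 4.58% and 5.42% with vehicle, 5.20%, 3.99% and 6.5% in the induced wild type and 5.79% and 3.92% in the induced mutant. The groups overlapped. Means were 4.42% ± 1.1, 5.23% ± 1.25 and 4.86% ± 1.32 (SD). In exact two-sided permutation tests, which cannot give a p below 0.1 here, the induced wild type differed from vehicle by 0.814 percentage points (p = 0.5). The mutant differed from vehicle by 0.444 points (exact permutation p = 0.7) and from the induced wild type by -0.37 points (exact permutation p = 0.7), and all 3 had an adjusted p of 0.7. All other genes together had means of 3.60%, 4.31% and 4.03% in the same order, with exact permutation p of 0.5, 0.6 and 0.8. Without vehicle A and induced wild type C the 3 differences changed sign, to -0.406, -0.142 and 0.264 points.

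Vehicle A and induced wild type C stood apart for all genes and for these. The median deviations were somewhat larger for the list, a difference that was not tested. The median deviation from a gene's mean log2(CPM + 1) in induced wild type C was 0.44 for the list and 0.31 for all genes. In vehicle A it was -0.37 and -0.28. For the conversion rate it was 1.26 and 0.99 points in induced wild type C and -1.16 and -0.99 in vehicle A. In all reads 40 of the 57 genes had their highest value in induced wild type C, where 53.0% of all genes had theirs. In vehicle A 27 of the 57 had their lowest, a share near the 45.6% of all genes. In the conversion rate 27 of 44 were highest in induced wild type C (48.0% of all genes). In vehicle A 24 of 44 were lowest, a share near the 51.3% of all genes. NRIP1, a nuclear receptor coregulator, had 1.35 CPM in vehicle A and 5.51 in induced wild type C, a ratio of 4.08. SOD1 had the opposite order, with a ratio of 0.557, and DOPEY2 had 0.771. Without both libraries no gene of the list passed. In all reads of induced wild type against vehicle 43 of 57 genes were above 0, beside 67.6% of all genes. Without the 2 libraries 11 of 57 were above 0, beside 26.1% of all genes. The median then was -0.18 for the list and -0.13 for all genes. In converted reads it was -0.15 for the list and -0.05 for all genes.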

How the data were processed

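SLAM-seq libraries of 8 NALM6 samples were used, made with a stranded mRNA kit. The authors deposited 1 all-read signal (named CPM in the file headers) and 1 conversion rate, a fraction, per RefSeq transcript and library. They also deposited FPKM of converted reads, named unprocessed by the authors. Reads were placed on hg19 (GRCh37), per the submitters' processing notes. For aligner, conversion caller, counted region and strand use the sources used here give nothing, so reads of overlapping and antisense genes cannot be told apart. The rate is not a share of reads: of 12594 rows with 1 read and a rate above 0, 12527 had a rate below 1.

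Whole reads were recovered from 100% of the CPM values within 0.1 read. Per gene the named row with the highest mean was used, and 78 rows of these genes without a symbol were set apart. limma 3.58.1 in R 4.3.3, with a variance trend, was fitted to all 8 libraries, with Benjamini-Hochberg adjustment over all genes tested. Only the all-read fit was checked on simulated data. Those counts were drawn independently, without the shifts of whole libraries seen here, so the check does not cover such shifts. Conversion over the list was tested by exact permutation over libraries. edgeR 4.0.16 and DESeq2 1.42.0 on recovered reads, other pseudocounts, filters, scalings, a replicate block and leaving out libraries were alternatives. Leaving out vehicle A with induced wild type C, fitting without the variance trend and adding the rows without a symbol were chosen after seeing the data. Genes were named by the smallest unadjusted p, 3 per direction, and by the highest and lowest levels and rates; others were chosen after their values were seen (URB1, IFNGR2, RUNX1, GABPA, NRIP1 and genes named to show a role). The members and lists were chosen with earlier results of these data known. Intervals and SE cover the spread between libraries only.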

Additional observations from a re-analysis of the deposited data

How the results depend on the processing

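No gene of the list passed in any of the alternatives run, 21 per comparison in all reads and 17 in converted reads and in new RNA, while the calls over all genes varied. They ran from 0 to 75 in all reads of mutant against vehicle (4 in the reported fit, 75 by DESeq2, 3 by edgeR), from 0 to 149 in its converted reads (23 in the reported fit) and from 0 to 80 in its new RNA (4). Of 54 differences named by rule, 47 kept their direction under every alternative run, though 36 turned sign or shrank by over 1.5 times without 1 library and 20 of these grew by as much without another. With libraries left out in turn, log2 differences ranged from -0.14 to 0.63 for TIAM1 in all reads of mutant against wild type. In converted reads of that comparison they ranged from -0.13 to 1.15 for BRWD1 and -1.77 to 0.15 for CCT8. Ranges were -1.59 to 0.34 for CCT8 in converted reads of mutant against vehicle, and -1.13 to 0.14 for BRWD1 and -0.60 to 0.11 for PRMT2 in those of wild type against vehicle. PCNT in all reads of wild type against vehicle was at -0.11 without vehicle A and induced wild type C, and the conversion differences were then -0.406, -0.142 and 0.264 points. With libraries left out in turn the conversion difference ranged from -0.491 to 1.38 points for mutant against vehicle and -1.30 to 0.564 for mutant against wild type. The cause was not tested.

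The replicate letter as a replicate block left 0 genes of the list called in each comparison and measure, and called 149 genes in all in converted reads of mutant against vehicle. DOPEY2 there had a limma difference of 1.53 (adjusted p = 0.0975, against 0.164 without the block). Deviations of libraries with the same letter correlated from -0.64 to 0.65 in all reads, and those with different letters from -0.71 to 0.71. The 2 mutant libraries mirror each other once their mean is removed. These values therefore cannot decide whether the letters pair the samples.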

Other observations

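Another 283 genes of the all-read table are placed on chromosome 21. In all reads 59 of them were at a mean of 1 CPM or more, and 106 were at 0 in all libraries. The most reads were those of ATP5O, a subunit of the mitochondrial ATP synthase, with 216 ± 37.6 CPM with vehicle (SD, n = 3), followed by PFKL, the liver-type phosphofructokinase, with 126 ± 6.57 CPM (SD, n = 3). None passed in limma in any comparison and measure. Their median log2 difference in converted reads of mutant against wild type was -0.16, beside -0.04 over all genes. Of the 24 tested 5 were above 0, beside 46.1% of all genes. In all reads of that comparison the median was -0.18 beside -0.12, with 17 of 59 above 0, beside 26.6% of all genes. New RNA did not show the lower values, with a median of 0.03 beside 0.00 and 23 of 43 above 0, beside 50.4%. At an unadjusted p below 0.05 in all reads of mutant against wild type, limma counted 3 of 59, ABCG1, CBS and ITGB2 (5.08%, against 2.75% of all genes). ITGB2, the shared beta subunit of leukocyte integrins, had a mean of 42.5 ± 7.37 CPM with vehicle (SD, n = 3), 39.5 ± 0.877 in the induced wild type (SD, n = 3) and 27.7 ± 3.4 in the mutant (SD, n = 2). Its limma log2 difference between mutant and vehicle was -0.59 (SE 0.18, adjusted p = 0.823). For wild type against vehicle 2 of 24 were below an unadjusted limma p of 0.05 in converted reads (8.33%, against 7.93%). In new RNA it was 3 of 43 (6.98%, against 3.10%) and in all reads 1 of 59 (1.69%, against 0.947%). For mutant against vehicle it was 4 of 43 in new RNA (9.30%, against 7.40%) and 1 of 24 in converted reads (4.17%, against 11.8%). In all reads it was 2 of 59 there (3.39%, against 3.75%). For mutant against wild type it was 0 of 24 in converted reads (against 2.95%) and 0 of 43 in new RNA (against 2.97%). PRDM15, a zinc-finger gene, differed by 1.10 (SE 0.39, adjusted p = 0.545) in converted reads between wild type and vehicle, and ERG, an ETS-family gene, by -0.58 (SE 0.19, adjusted p = 0.407) in new RNA between mutant and vehicle, both by limma.

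Of 35 listed interferon-stimulated genes, which lie downstream of the receptors on chromosome 21, 26 were at a mean of 1 CPM or more and 2 were at 0 in all libraries. None passed in limma. IFITM2 had the most reads, with 213 ± 11 CPM with vehicle (SD, n = 3). EIF2AK2, the RNA-activated kinase PKR, had the smallest p, with a limma log2 difference in new RNA of 1.05 (SE 0.25, adjusted p = 0.174) between mutant and vehicle and 0.62 (SE 0.22, adjusted p = 0.981) between wild type and vehicle. The medians of the list differed in sign between measures, of which only new RNA was set relative to the library median. In all reads of wild type against vehicle the median was 0.15, beside 0.09 over all genes. There 19 of 26 were above 0, beside 67.6% of all genes. In all reads of mutant against vehicle the median was -0.04 beside -0.04. In converted reads, where 5 were tested, it was 0.45 for wild type and 0.51 for mutant against vehicle, beside 0.23 and 0.17 over all genes. In each 5 of 5 were above 0, beside 73.0% and 62.9% of all genes. In new RNA, where 20 were tested, the median was -0.07 and -0.09, beside -0.04 and -0.05.

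For 3 genes of the list a row without a symbol had a higher mean than the row used: TMEM50B with 11.5 CPM beside 6.36, DOPEY2 with 12.4 beside 12.2 and DSCR3 with 9.55 beside 9.14.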
